A study of Homo sapiens with 4 samples.

Results

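The genes described here are 10 core autophagy genes, *ULK1*, *BECN1*, *WIPI1*, *ATG5*, *ATG7*, *ATG12*, *MAP1LC3B*, *GABARAPL1*, *SQSTM1* and *OPTN*. They were taken by symbol from the 63677 genes of the count files, and all 10 were found on primary chromosomes. They were chosen by function, because HMGB1 protein is known to bind Beclin 1, the product of *BECN1*. Read counts from RNA-seq were available for IMR90, a line of human lung fibroblasts grown as 2 single isolates, I90-10 and I90-79, both at passage 5. Cells were transfected for 72 h with NTC, a non-targeting control siRNA, or with siRNA against *HMGB1*, using the reagent RNAiMAX in both groups. The methods of the study name 2 different siRNAs for IMR90 and do not say how these were used over the libraries. Each group had 2 libraries of poly(A) RNA, and replicate 1 was I90-10 and replicate 2 was I90-79 in control and knockdown alike. The study asked what removing HMGB1, a chromatin protein studied there in cells entering senescence, does to gene expression.

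Autophagy encloses cytoplasm in a double membrane and delivers it to lysosomes. The ULK1 kinase complex starts the process, the Beclin 1 complex makes the lipid PI3P, WIPI proteins bind that lipid, and the ATG7, ATG12 and ATG5 conjugation machinery attaches LC3 and GABARAP proteins to the growing membrane. Cargo receptors such as p62 and optineurin link material to these proteins and are themselves degraded with it. Protein levels and the rate of autophagy were not measured, so the values below are RNA levels only.

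The libraries held between 29861687 and 35317010 assigned counts, and between 1044 and 71558 counts lay on each member. *HMGB1*, the targeted gene, was at 181 and 237 CPM (read counts scaled to the size of the library) in control and at 15.96 and 18.9 CPM in knockdown. This was a lower level in both isolates (log2 fold change −3.59, standard error (SE) 0.19, adjusted p = 0.00751 by edgeR's quasi-likelihood test). The 8 fibroblast markers each had at least 2027 counts in every library, while 5 epithelial markers summed to 18 to 21 counts and 5 immune markers to 3 to 10. The fibroblast markers moved apart. With the isolate as a block, *THY1* and *PDGFRB* were called lower (log2 fold change −0.99 and −0.68) and *LUM* higher (0.83), and none of these was called without it. *COL1A1* was at 12559 and 10573 CPM in the libraries of I90-10 and at 5665 and 5823 CPM in those of I90-79. All 8 fibroblast markers were higher in I90-10 than in I90-79, in control and in knockdown. The 3 endothelial markers measured summed to 44 and 55 counts in control and to 125 and 106 in knockdown, *CDH5* was at 0 throughout and *VWF* was called higher with the block (1.55). The part of these marker shifts in the results was not tested. In RNA from whole cultures, fewer cells of a type and less RNA per cell cannot be told apart.

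A gene was called when its adjusted p was below 0.01 and its log2 fold change was above 0.6 in either direction, the thresholds of the study. By edgeR with no term for the isolate, 0 of the 10 members were called, against 0.201% of the 15398 genes tested (0.0649% higher and 0.136% lower). At an unadjusted p below 0.05 there were 3 members, *SQSTM1* and *WIPI1* with positive and *ATG7* with negative fold changes, where 28.3% of all genes lay below that value. With the isolate as a replicate block 1 member was called, *SQSTM1*, which rose, against 14.5% of all genes called and 6.68% called higher. DESeq2, alone or after removal of 1 factor of unwanted variation by RUVs, also called 1 member, and in each case it was *SQSTM1*. The share of all genes called by these DESeq2 fits is not given here, so their counts cannot be set against it. The median log2 fold change was 0.00015 over the members and −0.0054 over all genes, and the median size of the change was 0.20 for the members and 0.33 for all genes. In 7 of the 10 members the control and knockdown libraries did not overlap, 4 higher and 3 lower, and the same was true of 59.9% of all genes, 29.8% higher and 30.2% lower. With 2 libraries a side, an exact permutation test of a single gene cannot go below p = 0.333 (two-sided), and nothing in the labels describes the isolates further, so p-values measure the spread between these 4 libraries.

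**Figure D1:**
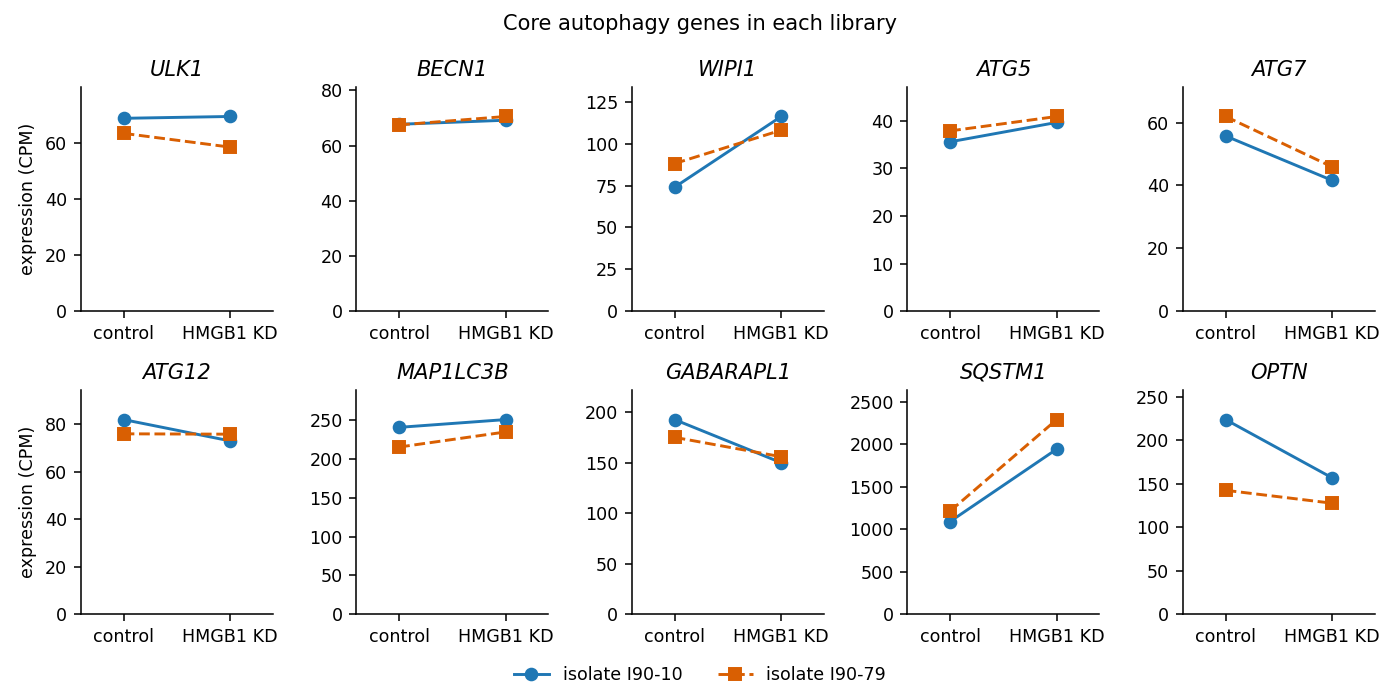
Expression of the 10 members in CPM, one panel a gene, each axis starting at 0; circles joined by a solid line are isolate I90-10 and squares joined by a dashed line are isolate I90-79. *SQSTM1* and *WIPI1* were higher and *ATG7* was lower in both isolates, while *BECN1* stayed between 67.5 and 70.6 CPM in all 4 libraries.

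*SQSTM1* (ENSG00000161011, chromosome 5 from 179233388 to 179265078 in hg19) encodes p62, the cargo receptor that binds ubiquitin and LC3 and also KEAP1, the inhibitor of NRF2. It was at 1091 CPM in control I90-10 and 1214 CPM in control I90-79, and at 1944 and 2291 CPM in the knockdown of the same isolates. The mean went from 1153 ± 86.7 to 2118 ± 246 CPM (SD, n = 2 each), and both knockdown libraries lay above both controls. Its log2 fold change of 0.88 (SE 0.17, adjusted p = 0.0429) passed the fold threshold and missed that on p, and with the isolate as a block it was 0.87 (adjusted p = 4.46e-04). Within an isolate the log2 change was 0.83 in I90-10 (95% counting interval 0.81 to 0.85) and 0.92 in I90-79 (0.90 to 0.93). Reads on *SQSTM1* made up 51.2% and 56.7% of all reads on the 10 members in control and 66.8% and 71.4% in knockdown. The 10 members together took 0.210% and 0.223% of the assigned reads in control and 0.281% and 0.322% in knockdown. Of its exonic bases, 22.01% overlap *MRNIP* and *MGAT4B* on the opposite strand, and whether the counting used strand is not given in the sources used here. *MRNIP* had 675 to 1078 and *MGAT4B* 7619 to 8959 counts a library, against 32057 to 71558 for *SQSTM1*. The log2 fold changes of *MRNIP* and *MGAT4B* were 0.34 and 0.23, and neither gene was called with or without the block.

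*OPTN* (ENSG00000123240, chromosome 10 from 13141449 to 13180291), which encodes the receptor optineurin, did not share the direction of *SQSTM1*. Its levels were 224 and 142 CPM in control and 157 and 128 CPM in knockdown, so the groups overlapped. The log2 fold change was −0.36 (SE 0.24, adjusted p = 0.378). It was −0.0048 without the control library of I90-10 and −0.65 without that of I90-79. Such fits have no term for the isolate and leave an isolate in a single group. *OPTN* was higher in I90-10 in both groups, so differences between isolates enter these values. With RUVs the log2 fold change was −0.076 (adjusted p = 0.805), and with the isolate as a block −0.34 (adjusted p = 0.0507). Within the isolates the log2 change was −0.51 (−0.57 to −0.46) in I90-10 and −0.16 (−0.22 to −0.10) in I90-79. The value with RUVs was smaller in size than either. Per length of exon, *SQSTM1* stood 3.26- and 5.70-fold above *OPTN* in control and 8.29- and 12.01-fold above it in knockdown.

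*ULK1* (ENSG00000177169, chromosome 12 from 132379196 to 132407712) encodes the kinase that receives signals from mTORC1 and AMPK and starts autophagy. It was at 68.7 and 63.3 CPM in control and 69.3 and 58.4 CPM in knockdown, and the knockdown libraries lay on either side of the controls. The log2 fold change was −0.047 (SE 0.13, adjusted p = 0.85), with 0.014 (−0.08 to 0.10) in I90-10 and −0.12 (−0.21 to −0.03) in I90-79. Its sign turned under 3 of the alternatives, RUVs and the fits without control I90-10 or without knockdown I90-79, which have no term for the isolate.

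*BECN1* (ENSG00000126581, chromosome 17 from 40962152 to 40985367) encodes Beclin 1, the scaffold of the lipid kinase complex and the known binding partner of HMGB1. It was at 67.7 and 67.5 CPM in control and at 69.2 and 70.6 CPM in knockdown, the smallest range relative to its level of the 10 members over these libraries. The groups did not overlap, but the log2 fold change was 0.048 (SE 0.10, adjusted p = 0.802) and 0.047 with the block (adjusted p = 0.742). The counting intervals of the change were −0.06 to 0.12 in I90-10 and −0.02 to 0.15 in I90-79. Among the 73 other members and listed autophagy genes tested, the levels of *ATG13*, *SNAP29* and *UVRAG* followed *BECN1* most closely over the 4 libraries, at root mean square distances of 0.0108, 0.0163 and 0.0189 on the centred log2 scale. These 3 genes, like *BECN1*, varied little, with log2 fold changes of 0.027, 0.030 and 0.070. Of the exonic bases of *BECN1*, 17.2% overlap *PSME3* and *CNTD1* on the opposite strand, and *PSME3* had a log2 fold change of 0.38 (adjusted p = 0.109).

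*WIPI1* (ENSG00000070540, chromosome 17 from 66417089 to 66453654) encodes a protein that binds PI3P on the forming membrane. It was at 74.0 and 88.1 CPM in control and 116 and 108 CPM in knockdown, with both knockdown libraries above both controls. The log2 fold change was 0.47 (SE 0.13, adjusted p = 0.0912), and 0.47 with the block (adjusted p = 0.0146), below the fold threshold. The change was 0.65 (0.57 to 0.73) in I90-10 and 0.29 (0.22 to 0.36) in I90-79, intervals that cover counting error only, and the difference between isolates was not tested. Per length of exon, *WIPI1* stood 1.69- and 2.25-fold above its relative *WIPI2* in control and 2.56- and 2.62-fold above it in knockdown. Of its exonic bases, 28.1% overlap the opposite strand gene *ARSG* and one further gene, and *ARSG*, at 287 to 477 counts a library, had a log2 fold change of 0.42 (adjusted p = 0.201).

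The conjugation genes gave one lower value and others near 0. *ATG7* (ENSG00000197548, chromosome 3 from 11313995 to 11599139), the activating enzyme for both ATG12 and the LC3 family, was at 55.7 and 61.9 CPM in control and 41.6 and 45.9 CPM in knockdown. Both knockdown libraries lay below both controls, and the log2 fold change of −0.43 (SE 0.12, adjusted p = 0.0972) was nearly the same in I90-10 (−0.42) and I90-79 (−0.43). With the block its adjusted p was 0.0122. *VGLL4* overlaps 18.1% of the exonic bases of *ATG7* from the opposite strand, was counted at a like level (1645 and 1650 counts in control, 1197 and 1165 in knockdown) and had a log2 fold change of −0.36 (adjusted p = 0.205). The part of such shared bases in the value of *ATG7* was not tested.

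*ATG12* (ENSG00000145782, chromosome 5 from 115163893 to 115177555), the ubiquitin-like protein joined to ATG5, was at 82.0 and 76.0 CPM in control and 73.0 and 75.9 CPM in knockdown. The groups were separate by a narrow margin, between the libraries of I90-79, where the log2 change was −0.0029, and the log2 fold change of −0.086 (SE 0.11, adjusted p = 0.648) came mostly from I90-10 (−0.17). *ATG5* (ENSG00000057663, chromosome 6 from 106632351 to 106773666) was at 35.5 and 37.8 CPM in control and 39.6 and 40.9 CPM in knockdown, which were both higher. Its log2 fold change was 0.13 (SE 0.11, adjusted p = 0.488), with 0.16 in I90-10 and 0.11 in I90-79.

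The ATG8 proteins carry the lipid tail that anchors them in the membrane. *MAP1LC3B* (ENSG00000140941, chromosome 16 from 87417601 to 87438385), which encodes LC3B, was at 241 and 215 CPM in control and 251 and 235 CPM in knockdown, and the groups overlapped. The log2 fold change was 0.090 (SE 0.13, adjusted p = 0.677), and 0.16 with RUVs. *GABARAPL1* (ENSG00000139112, chromosome 12 from 10365057 to 10375727), of the GABARAP branch, was at 193 and 175 CPM in control and 150.0 and 156 CPM in knockdown, both of them lower. Its log2 fold change was −0.27 (SE 0.12, adjusted p = 0.209), with −0.36 in I90-10 and −0.17 in I90-79. The processed copies *MAP1LC3B2* and *GABARAPL3* share 50-base pieces with these genes and had 0 counts in all 4 libraries.

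Within a library, the order of the 2 ATG8 genes differed between control and knockdown, by a narrow margin in control. Per length of exon, *GABARAPL1* stood 1.04- and 1.06-fold above *MAP1LC3B* in the control libraries and at 0.778 and 0.863 of it in the knockdown libraries. The order of *OPTN* and *WIPI1* differed in the same way, *OPTN* being higher in both controls and *WIPI1* higher in both knockdown libraries. Which gene of a pair stands higher depends on the exonic lengths used, and none of these genes was called. The order of the other members was close to fixed. In control, mean levels per length ran from 150.4 ± 11.3 CPM per kb for *SQSTM1* through 45.0 ± 3.04 for *GABARAPL1*, 42.9 ± 3.38 for *MAP1LC3B*, 35.7 ± 11.2 for *OPTN* and 23.8 ± 2.93 for *WIPI1* (SD, n = 2). Below them were 13.2 ± 0.031 CPM per kb for *BECN1*, 9.35 ± 0.412 for *ATG5*, 8.89 ± 0.477 for *ATG12*, 8.67 ± 0.498 for *ULK1* and 6.66 ± 0.496 for *ATG7* (SD, n = 2). Of neighbours in this order, the control ranges of *GABARAPL1* and *MAP1LC3B*, of *MAP1LC3B* and *OPTN*, of *ATG5* and *ATG12* and of *ATG12* and *ULK1* overlapped. *SQSTM1* was first, *BECN1* sixth and *ATG7* last in all 4 libraries.

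**Figure D2:**
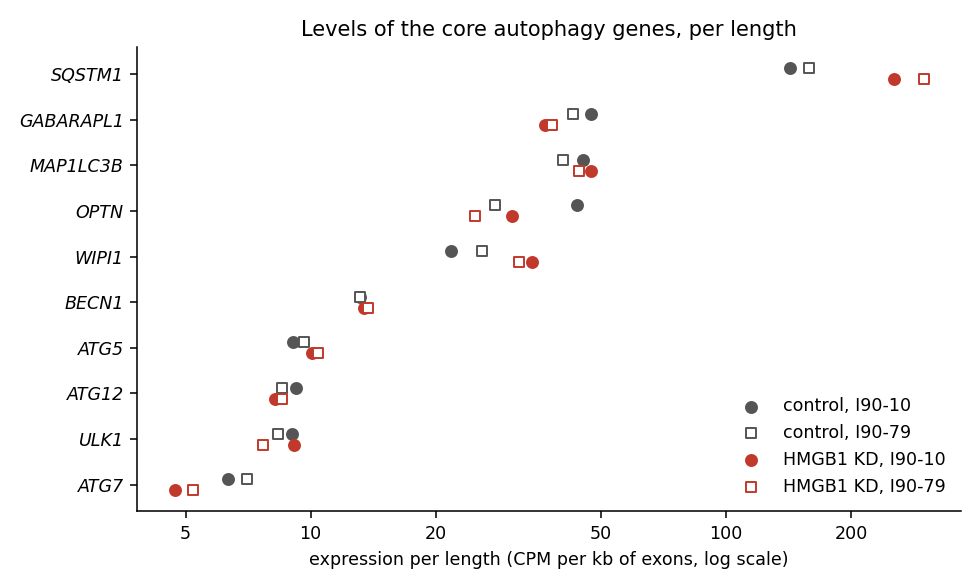
Level of each member in CPM per kb of exon on a log axis, ordered by the control mean; grey symbols are control, red symbols HMGB1 knockdown, filled circles I90-10 and open squares I90-79. *SQSTM1* stood apart at 142 to 299 CPM per kb. The knockdown levels of *GABARAPL1* lay below those of *MAP1LC3B*, while in control *GABARAPL1* was slightly higher within each library and the ranges overlapped.

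**Figure D3:**
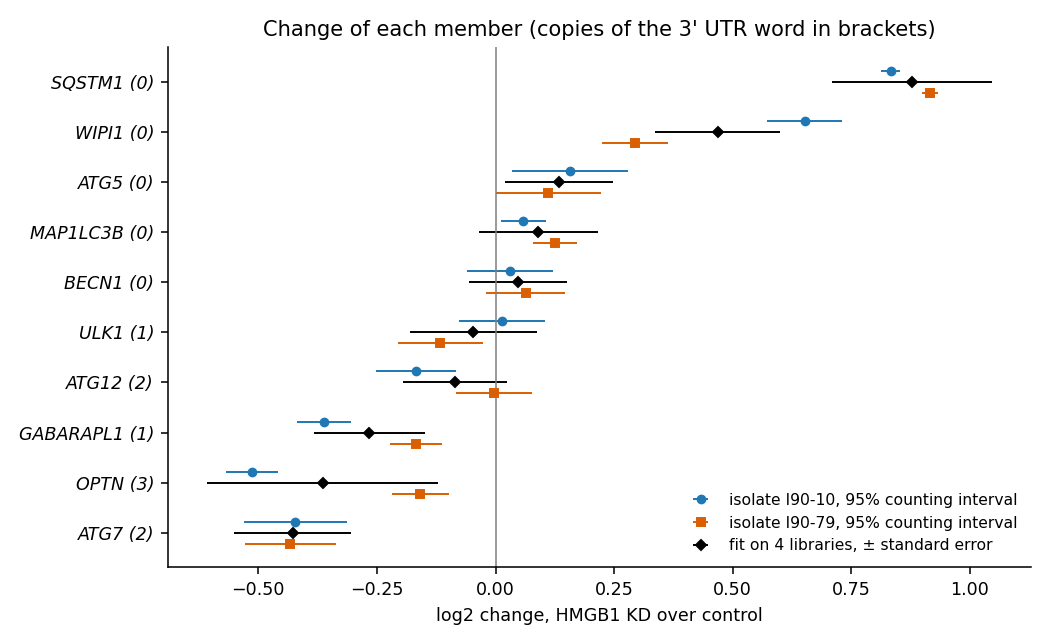
Log2 change of each member in the HMGB1 knockdown, with both isolates (95% counting intervals) and the edgeR value over 4 libraries (± standard error), ordered by the latter; the number in brackets counts copies of a 6-base word in the 3′ UTR. The sign was the same in both isolates for all members but *ULK1*, whose sign also turned under 3 alternatives, and the members with 0 copies lie above those with 1 or more. This word was picked on these same counts. The changes of *ULK1*, *ATG12*, *BECN1* and *MAP1LC3B* were smaller than their standard errors.

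The members were then read against their 3′ UTRs. The word GCAGTT was picked in earlier work on these same counts because genes that hold it in the 3′ UTR tended to be lower in knockdown, so what follows is a description and no independent evidence. In the longest annotated 3′ UTR of each gene, read on the sense strand, *OPTN* holds 3 copies, *ATG7* and *ATG12* hold 2 each, and *GABARAPL1* and *ULK1* hold 1 each. *BECN1*, *WIPI1*, *ATG5*, *MAP1LC3B* and *SQSTM1* hold 0. All 5 members with the word had a negative log2 fold change (−0.43 to −0.05, median −0.27), although the sign of *ULK1* turned under 3 alternatives, and all 5 without it had a positive one (0.05 to 0.88, median 0.13). The changes of *ULK1* (−0.047), *ATG12* (−0.086), *BECN1* (0.048) and *MAP1LC3B* (0.090) were smaller than their standard errors, so their signs are uncertain. That of *OPTN* was −0.0048 without control I90-10, in a fit with no term for the isolate, and −0.51 and −0.16 within I90-10 and I90-79. The 3′ UTRs of the first 5 were 1276 to 3604 bases long and those of the others 492 to 2246 bases. The copies are printed below in 30-base windows from the GRCh37 genome, 5′ to 3′ on the strand of the gene, with the word in capitals, because they are the sequence on which this split of the members rests.
ULK1, chr12:132406579-132406608, plus strand: ctagaggcagagGCAGTTctttgttcaagc
ATG7, first copy, chr3:11596559-11596588, plus strand: ttggtcctccatGCAGTTtttatttcttgt
ATG7, second copy, chr3:11598841-11598870, plus strand: agttcaaagggaGCAGTTtctgcatgtagg
ATG12, first copy, chr5:115164915-115164944, minus strand: atctcttttcatGCAGTTtctgcttcattt
ATG12, second copy, chr5:115164676-115164705, minus strand: acttctgctcgtGCAGTTtacttacacctt
GABARAPL1, chr12:10374730-10374759, plus strand: tttaattgttgtGCAGTTtcatagatgggt
OPTN, first copy, chr10:13179200-13179229, plus strand: acccaggaagtgGCAGTTgcagtgagccga
OPTN, second copy, chr10:13179453-13179482, plus strand: tgcactgctcatGCAGTTagctagcatgtg
OPTN, last copy, chr10:13179704-13179733, plus strand: gttttcacatagGCAGTTagcctttactta

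Of the 12556 tested genes with a 3′ UTR of at least 100 bases, 37.9% hold the word. Among these, 61.6% had a negative log2 fold change (median −0.14) and 16.8% were called lower with the block. Among genes without it, 42.7% were negative (median 0.07) and 4.18% were called lower. Genes with the word have longer 3′ UTRs, with a median of 2958.5 against 1004.5 bases. Within the range of 1000 to 3000 bases, 64.2% of genes with the word and 44.5% of those without were negative. For the reverse complement AACTGC the shares were 53.7% with and 51.2% without in that range of lengths, and 53.1% and 48.0% over all lengths. Because GCAGTT was picked on these same counts, neither comparison is an independent check. The sequences of the siRNAs are not given in the sources used here, and the part of this word in the values of the members was not tested.

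Short promoter windows close to annotated starts (RefSeq, GRCh38.p14) were searched on both strands for 3 short words tied to regulators of autophagy genes. Matches in members and listed autophagy genes lay at −246 to 33 bases from the start. All 10 members had a window, 14 in all. CACGTG, the palindrome bound by TFEB and its relatives, was in 0 of these and in 7.26% of all 35116 windows, and GTAAACA, the core of the FOXO site, was in 0 and in 3.42%. TGACNNNGC, the core of the NRF2 element, was in 1, that of *MAP1LC3B*, and in 13.3% of all windows. A match or its lack describes these short windows only, and sites farther from the starts were not searched.

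The rest of the pathway was read from a list of 69 genes in 8 roles, of which 68 were matched to the count files and 64 were tested. By edgeR without the block 0 of these were called, against 0.201% of all genes, and 23 had an unadjusted p below 0.05, 9 higher and 14 lower, against 28.3% of all genes. With the isolate as a block 2 rose, against 6.68% of all genes, and 12 fell, against 7.84% of all genes. The groups did not overlap for 44 of the 64, 19 higher and 25 lower, against 59.9% of all genes (29.8% higher and 30.2% lower), and the median log2 fold change of the list was −0.019. DESeq2 called 1 higher and 8 lower, with no share of all genes from that fit to set beside these counts. The calls named in the following 4 paragraphs were made with the block, and the adjusted p without it is given beside them.

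Upstream of the members, *PRKAA1*, which encodes a catalytic subunit of the energy sensor AMPK, was at 126 and 133 CPM in control and 45.0 and 51.9 CPM in knockdown. It fell by 1.42 on the log2 scale (adjusted p = 6.73e-05 with the block and 0.0104 without). *PRKAA2*, the alternative catalytic subunit, was at 13.5 and 20.8 CPM in control and 23.2 and 35.2 CPM in knockdown, and rose by a log2 fold change of 0.77 (adjusted p = 0.00163 with the block and 0.165 without). Per length, *PRKAA1* stood 13.2- and 9.09-fold above *PRKAA2* in control and 2.77- and 2.10-fold above it in knockdown. *FOXO3*, a transcription factor that activates autophagy genes, went from 88.5 and 68.4 to 26.0 and 23.6 CPM, a log2 fold change of −1.65 (adjusted p = 6.06e-05 with the block and 0.0129 without). *TSC1*, an inhibitor of mTORC1 signalling, fell by 0.75 on the log2 scale (adjusted p = 0.00146 with the block and 0.0296 without). *MITF*, a relative of the lysosomal regulator TFEB, fell by 0.86 on the log2 scale (adjusted p = 0.00193 with the block and 0.117 without). Within the isolates the log2 change of *PRKAA2* was 0.78 in I90-10 and 0.76 in I90-79, and that of *MITF* was −0.998 and −0.72. Without the block, leaving out libraries moved *PRKAA2* from 0.76 to 0.49 (without control I90-10) and 0.44 (without knockdown I90-79). It moved *MITF* from −0.88 to −0.51 (without control I90-10). Such fits leave an isolate in a single group, so differences between isolates enter their fold changes. With RUVs neither gene was called, *PRKAA2* being at 0.45 (adjusted p = 0.114) and *MITF* at −0.56 (adjusted p = 0.0595). Both values were smaller in size than within either isolate, and DESeq2 alone called neither gene. *SESN2*, a further inhibitor of mTORC1, fell by 0.78 on the log2 scale (adjusted p = 0.00654 with the block and 0.0597 without). With the block, the inhibitors *TSC2* (−0.049), *DDIT4* (−0.078), *SESN1* (−0.23) and *DEPTOR* (−1.21, at 7 to 46 counts a library) were not called. *TFEB* (−0.54) and its relative *TFE3* (0.17) were not called either. *MTOR* itself was at 0.57 (adjusted p = 0.00256 with the block) and missed on fold. So did *KEAP1*, at 0.46 (adjusted p = 0.00708 with the block and 0.0838 without). Of the 16 genes in this role 1 rose and 5 fell.

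Around *ULK1*, the initiation genes moved both ways. *ULK2*, the second kinase of this kind, was at 28.8 and 18.6 CPM in control and 7.55 and 6.76 CPM in knockdown, a log2 fold change of −1.70 (adjusted p = 2.15e-04 with the block and 0.0251 without). Per length, *ULK1* stood 3.08- and 4.41-fold above *ULK2* in control and 11.9- and 11.2-fold above it in knockdown. *ATG2A*, a lipid transfer protein, was at 34.6 and 43.6 CPM in control and 80.4 and 83.9 CPM in knockdown and rose by a log2 fold change of 1.08 (adjusted p = 3.10e-04 with the block and 0.0222 without). *VMP1*, a membrane protein of the endoplasmic reticulum needed for the forming membrane, fell by 0.63 on the log2 scale (adjusted p = 0.00232 with the block and 0.0740 without). *RB1CC1* was at 0.53 (adjusted p = 0.0071 with the block and 0.0866 without) and missed on fold. So did *ATG101*, at 0.55 (adjusted p = 0.00776 with the block and 0.0696 without). Of the 9 genes in this role 1 rose and 2 fell.

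Around *BECN1*, 2 of the 9 genes tested fell and 0 rose. *BCL2L1*, which encodes BCL-XL, a protein that binds and restrains Beclin 1, was at 107 and 98.0 CPM in control and 45.9 and 42.6 CPM in knockdown. It fell by 1.21 on the log2 scale (adjusted p = 1.17e-04 with the block and 0.0119 without). The ratio of *BECN1* to *BCL2L1*, per length, was 0.409 and 0.444 in control and 0.973 and 1.07 in knockdown. *NRBF2*, a subunit of the same lipid kinase complex, fell by 0.82 on the log2 scale (adjusted p = 0.00155 with the block and 0.0320 without). Of the 4 PI3P effectors, *WDR45B*, a relative of *WIPI1*, was the gene that fell, by 0.70 on the log2 scale (adjusted p = 0.00135 with the block and 0.0310 without).

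Of the 7 conjugation genes 0 were called, and the lowest p belonged to *ATG3*, the enzyme that joins lipid to LC3, at a log2 fold change of 0.35 (adjusted p = 0.0300 with the block and 0.149 without). Of the 3 ATG8 genes tested 0 were called, with *GABARAPL2* at 0.55 (adjusted p = 0.00434 with the block and 0.0457 without), which passed on p with the block and missed on fold. Of the 9 cargo receptors and their kinases, *BNIP3L*, a receptor for mitochondria, fell by 0.602 on the log2 scale (adjusted p = 0.00197 with the block and 0.0539 without), a call that DESeq2 (−0.598) and RUVs (−0.51) did not make. *CALCOCO2*, the receptor NDP52, also passed on p with the block and was just short of the fold threshold, at −0.595 (adjusted p = 0.00272 with the block and 0.0487 without). Among the 7 genes of fusion with lysosomes, *EPG5* fell by 0.65 on the log2 scale (adjusted p = 0.00488 with the block and 0.0834 without). *PLEKHM1*, an adaptor for fusion, was at 0.56 (adjusted p = 0.00365 with the block and 0.0597 without) and missed on fold, while RUVs called it higher at 0.65 (adjusted p = 0.00112).

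**Figure D4:**
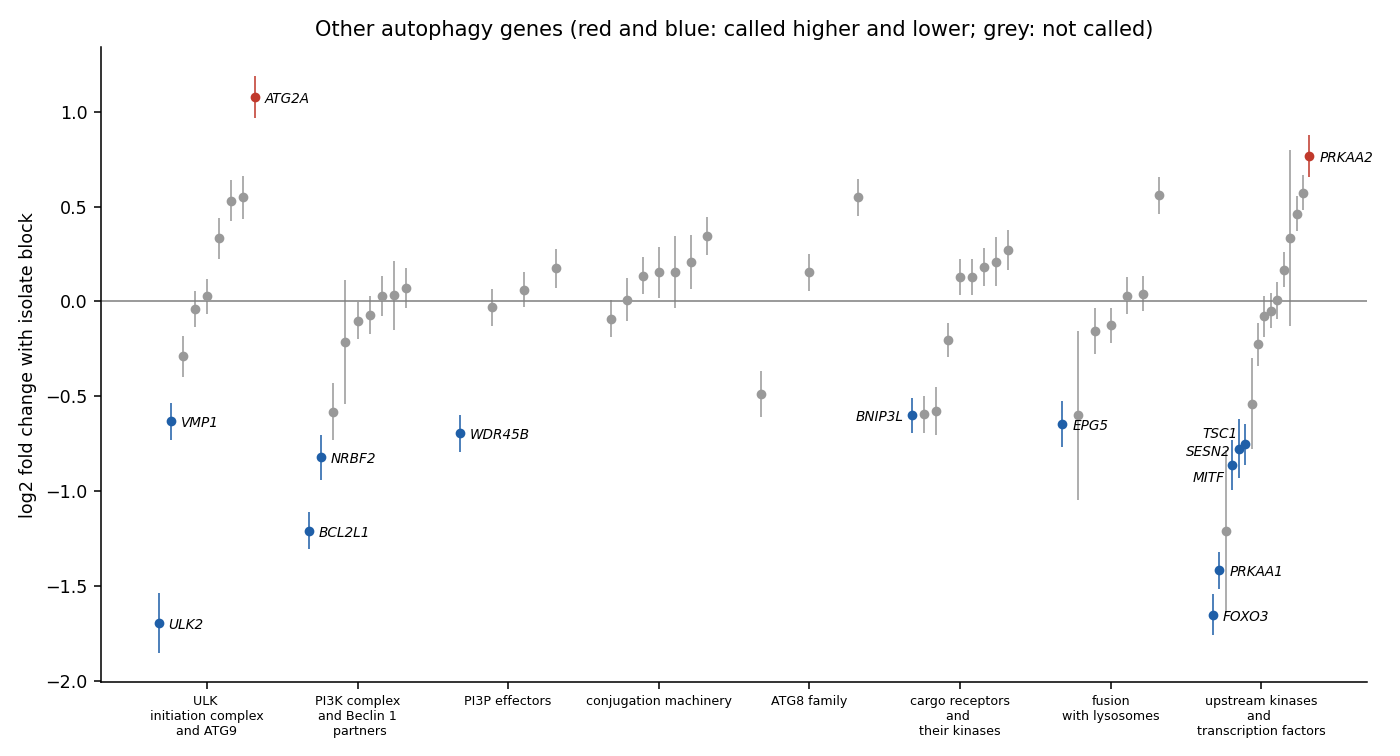
Log2 fold change with the isolate as a block (± standard error) of the 64 listed genes tested, arranged by role in the pathway; red marks genes called higher, blue genes called lower and grey the other 50. Calls lie in 6 of the 8 roles, and 12 of the 14 are lower. Genes that passed on p but missed on fold were *MTOR*, *KEAP1*, *RB1CC1*, *ATG101*, *GABARAPL2* and *PLEKHM1*, all positive, and *CALCOCO2*, negative.

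Of the listed genes, 27 hold the 3′ UTR word, and 17 of them had a negative log2 fold change, against 61.6% of all genes with it. With the block, 9 of the 27 were called lower, against 16.8%, and 1, *PRKAA2* with 3 copies, was called higher, against 6.47%. Of the 37 without it 16 were negative, against 42.7% of all genes without it. Of these 37, 3 were called lower (*NRBF2*, *MITF* and *SESN2*), against 4.18%, and 1 was called higher (*ATG2A*), against 8.46%. The median 3′ UTR length in the list was 2819 bases with the word and 1036 without, and the part of length in these counts was not tested. The most copies were in *FOXO3* with 6, *TSC1* with 5 and *ULK2* and *CALCOCO2* with 4 each. *PRKAA1*, *BCL2L1* and *EPG5* hold 2 each, and *WDR45B*, *VMP1* and *BNIP3L* hold 1 each.

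**Figure D5:**
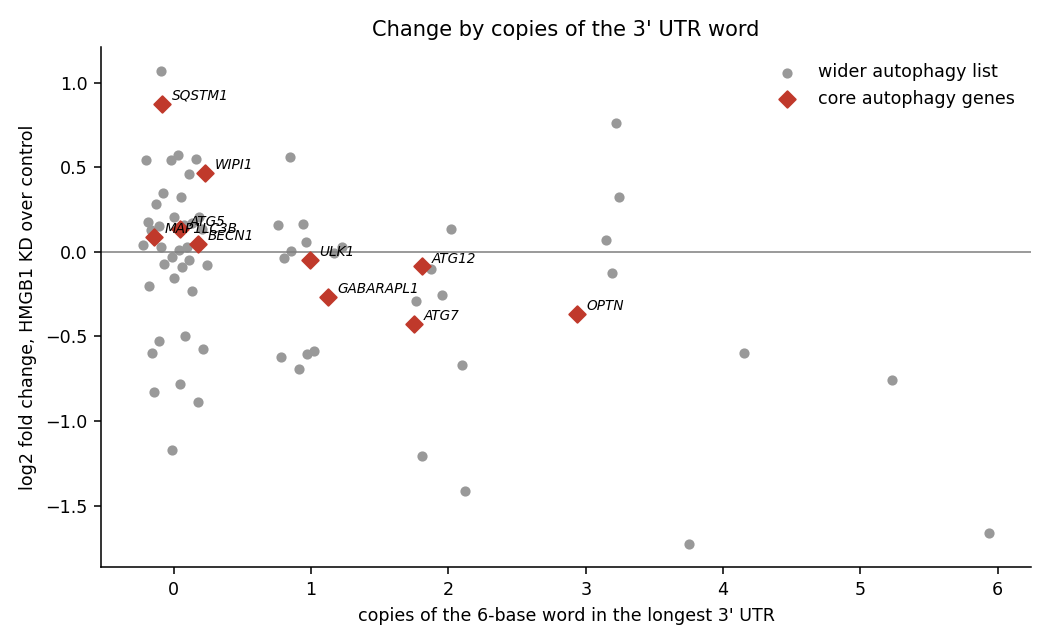
Log2 fold change by edgeR without the block against the number of copies of the 6-base word in the longest 3′ UTR; red diamonds are the 10 members, grey circles the listed genes, and points are spread sideways within each whole number. All members with 1 or more copies lie below 0, *ULK1* (−0.05) with a sign that turned under 3 alternatives, and all members with 0 copies lie above it. Since the word was picked on these same counts, the split is a description only. The changes of *ULK1*, *ATG12*, *BECN1* and *MAP1LC3B* were smaller than their standard errors.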

How the data were processed

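Poly(A) RNA of 4 libraries was sequenced after the TruSeq RNA kit. The authors aligned reads to hg19 with STAR, counted unique reads per gene with featureCounts, and tested with RUVs and DESeq2; the deposited values are raw counts per gene. Versions, the strand setting and whether pairs were counted once are not given in the sources used here. Here, symbols came from a table of gene names, which left *NCOA4* and *PECAM1* without a match. Genes passing filterByExpr (15398) were tested in edgeR 4.0.16 (TMM, quasi-likelihood, legacy deviances, Benjamini-Hochberg over all genes, R 4.3.3), knockdown against control, with adjusted p below 0.01 and absolute log2 fold change above 0.6. CPM used TMM-scaled totals, and levels per length used the exonic length in the count files. Intervals are 95% and cover counting error only.

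The replicate number marks the isolate in the labels, so it pairs the libraries, and the differences between isolates in control and in knockdown correlated at r = 0.46 over 15398 genes, which are not independent. Named were *HMGB1*, all 10 members, any listed gene called without the block, the 12 listed genes of smallest p among those called with it, the gene of smallest p in each role, and the 3 genes nearest to *BECN1*. Genes named outside this rule (*SESN2*, *EPG5*, *MTOR* and its other inhibitors, *TFEB*, *TFE3*, *KEAP1*, *RB1CC1*, *ATG101*, the overlapping genes, single cell type markers and relatives in ratios) were chosen after their values were seen. The members and lists were chosen with earlier results of these data known. Alternatives were DESeq2 1.42.0, RUVs with 1 factor (written out from its description) before DESeq2, median-of-ratios scaling, no filter on counts, at least 10 counts in every library, bias-adjusted deviances, the isolate as a block, an adjusted p below 0.05 with no fold threshold, and leaving out each library. The scripts were tested on simulated data. 3′ UTRs came from GENCODE v44 lifted to GRCh37.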

Additional observations from a re-analysis of the deposited data

Results flagged for a closer look

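*ULK1* was the member whose log2 change had opposite signs in the 2 isolates, 0.014 in I90-10 and −0.12 in I90-79, and the difference was not tested.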

How the results depend on the processing

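With the isolate as a replicate block, 1 member was called higher in place of 0, *SQSTM1* at 0.87, and 2 listed genes were called higher and 12 lower in place of 0 and 0, and the block changed the call of no other member or listed gene, nor of *HMGB1*. Over all genes tested, 31 were called without and 2235 with the block. Members called higher were also 1 by DESeq2, RUVs, no filter, the block with bias-adjusted deviances and the threshold of 0.05, and members called lower were 0 under every alternative run. Listed genes called higher and lower were 1 and 8 by DESeq2, 2 and 9 with RUVs, 2 and 11 with no filter, 2 and 12 with the block and bias-adjusted deviances, and 2 and 8 at the threshold of 0.05. Bias-adjusted deviances alone gave 0 and 1. Shares of all genes called are given only for edgeR with and without the block, so counts under the other settings have no such background. Leaving out 1 library at a time gave 0 members called, 0 to 1 listed genes higher and 0 to 4 lower, where both knockdown libraries gave 0 and 0, control replicate 1 gave 0 and 3 and control replicate 2 gave 1 and 4. Those fits have fewer samples, and the lone library of a group is assumed to vary like the other group. They have no term for the isolate and leave an isolate in a single group, so differences between isolates enter them. *HMGB1* then lay between −3.77 and −3.38, with adjusted p of 0.0487 without knockdown replicate 1 (−3.47) and 0.0324 without knockdown replicate 2 (−3.71). *ULK1* turned to 0.042 with RUVs, and leaving out libraries moved it between −0.18 and 0.075 (0.011 without control replicate 1 and 0.075 without knockdown replicate 2). *ULK1* was at a higher level in I90-10 than in I90-79 in control and in knockdown, and the cause of these shifts was not tested. Apart from these 3, of the single-gene values, 278 kept direction and side of the threshold and 67 kept direction and passed it. The adjusted p of *SQSTM1* ranged from 1.64e-07 to 0.185 over its alternatives. Each member had at least 1044 counts in every library.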
